A study of Mus musculus with 16 samples.

Results

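The RUVBL1/2 complex is an AAA+ ATPase that serves chromatin remodelers, assembly chaperones and transcription. This account follows the transcripts of cilium and centrosome proteins while RUVBL2 was removed from mouse embryonic stem cells (mESCs). The genes were chosen by name: symbols that begin with Ift, Bbs, Cep, Tctn or Nphp and a digit, together with Arl3, Arl6, Arl13b, Ttc8, Ttc21b, Wdr19 and Wdr35. The rule used no expression value. It found 75 of the 55335 genes in the table, of which 15 were IFT genes, 9 BBS genes (Ttc8, also called BBS8, included), 39 CEP genes and 12 others. In 71 of the 75 the counts were high enough for a test. The other 4, the noncoding Ift88os, Cep112it and Cep112os1 and the gene Cep295nl, stayed below 0.7 TPM (transcript abundance scaled by transcript length and library size) in all 16 libraries.

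The cells were a V6.5 mESC line in which both copies of Ruvbl2 carry an auxin-inducible degron fused to GFP. The line also holds an OsTIR1 gene under doxycycline control, whose product marks the tagged protein for destruction once auxin is present. Every group shares these alleles, and the degron line was derived by picking drug-resistant clones. Poly(A) RNA-Seq was made from untreated cells (Mock), from cells given doxycycline alone for 24 h (labelled Dox, called 0 h here), and from cells then left with auxin as well, sampled after 0.5, 1, 6, 12, 24 and 48 h. There were 2 libraries a condition (16 in 8 conditions), which the study's methods call technical duplicates, so p-values measure the spread between libraries and that spread may be technical. Time in doxycycline grew with time in auxin, so the effects of the agents and of RUVBL2 loss at late times cannot be told apart from this series alone. The cells were taken off fibroblast feeders for 2 passages, and since the RNA is from bulk cultures, fewer cells of a type and less RNA per cell cannot be told apart.

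A primary cilium is a microtubule axoneme that grows from the older centriole of the centrosome. Intraflagellar transport (IFT) carries cargo along it: the IFT-B complex moves with kinesin toward the tip, and the IFT-A complex returns with dynein. The BBSome is a coat-like complex that rides on IFT and sorts membrane proteins, and it is named after Bardet-Biedl syndrome, the disease caused by its loss. A transition zone at the base gates entry, distal appendages dock the older centriole to the membrane, and the CEP proteins (a naming series for centrosomal proteins rather than one complex) build, link and duplicate centrioles.

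Total counts per library ran from 11666732 to 13924958, and duplicate libraries correlated at 0.989 to 0.991 in log2 CPM across genes. CPM are counts scaled to the library total times its TMM scaling factor. Because the degron acts on the protein, the Ruvbl2 transcript is no check of depletion: it lay between 129 and 189 CPM and passed the call rule in no comparison. The 10 embryonic stem cell markers summed to 10600.5 to 13197 TPM with none at 0, and 1, 1, 3 and 0 of them were called lower at 6, 12, 24 and 48 h. Nanog, a pluripotency factor, gave 1698 and 1664 TPM (0 h), 766 and 732 (24 h) and 1688 and 1593 (48 h). The 15 fibroblast markers, which stand for the feeder cells, summed to 15.3 to 16.2 TPM in Mock, 23.6 to 25.2 at 0 h, 26.3 to 31.0 over 6 and 12 h, 21.6 to 23.9 at 24 h and 16.7 to 17.0 at 48 h, and between 2 and 5 of them were at 0 in a condition. Dcn, Lum, Col3a1, Postn and Col1a2, defining fibroblast genes, were at or near 0. Pdgfrb went up, from 0.674 and 1.17 TPM at 0 h to 8.2 and 10.1 at 24 h. Tagln went down, from 12.1 and 12.1 TPM at 0 h to 2.54 and 3.57 at 24 h and 0.26 and 0.325 at 48 h. Col5a1 also went down, from 5.04 and 5.03 TPM at 0 h to 2.88 and 3.62 at 24 h. Of the 8 fibroblast markers tested, 4, 3, 2 and 3 were called higher and 0, 0, 2 and 2 lower at 6, 12, 24 and 48 h. Endoderm and trophectoderm markers (12 genes) summed to 82.9 to 83.8 TPM at 0 h, 127 to 135.9 over 6 and 12 h, 83.4 to 89.4 at 24 h, and 113 to 119.8 at 48 h. Neural markers (8 genes) summed to 200.7 to 212 at 0 h, 587 to 591.4 at 6 h and 110.8 to 190.3 from 12 to 48 h. The part of these shifts in the results was not tested.

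The question for each time point was whether loss of RUVBL2 changed these transcripts relative to 0 h. A gene was called where edgeR's quasi-likelihood test gave an adjusted p (Benjamini-Hochberg over all 15155 genes tested) under 0.05 with a fold change over 1.5. After 0.5 h none of the 71 members was called, beside 0.455% of all genes tested called higher and 0.277% called lower. At 1 h the count was again 0, beside 0.666% higher and 0.541% lower. At an unadjusted p under 0.05 there were 5 of 71 members at 0.5 h and 14 at 1 h, beside 2959 and 3581 of the 15155 genes tested, and DESeq2 also called 0 at both times. At 6 h, 15 members were lower and 0 higher, where 5.7% of all genes were called lower and 10.1% higher. At 12 h, 32 were lower and 2 higher (background 13.2% and 14.8%), at 24 h 29 were lower and 5 higher (20.3% and 20.2%), and at 48 h 35 were lower and 4 higher (17.6% and 17.9%). The median log2 fold change of the members was -0.30 (6 h), -0.40 (12 h), -0.53 (24 h) and -0.53 (48 h), while that of all genes tested lay between -0.02 and 0.01. These comparisons share the 0 h libraries. Set against a scale of reads mapped to the fly genome (dm6) that the study lists for each library, the median of all genes moved to 0.19 (1 h), -0.56 (12 h), -0.23 (24 h) and -0.18 (48 h), and the 48 h split became 37 lower and 0 higher, beside 24.7% of all genes lower and 12.8% higher on that scale. Where the fly reads in these libraries came from was not stated.

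**Figure D1:**
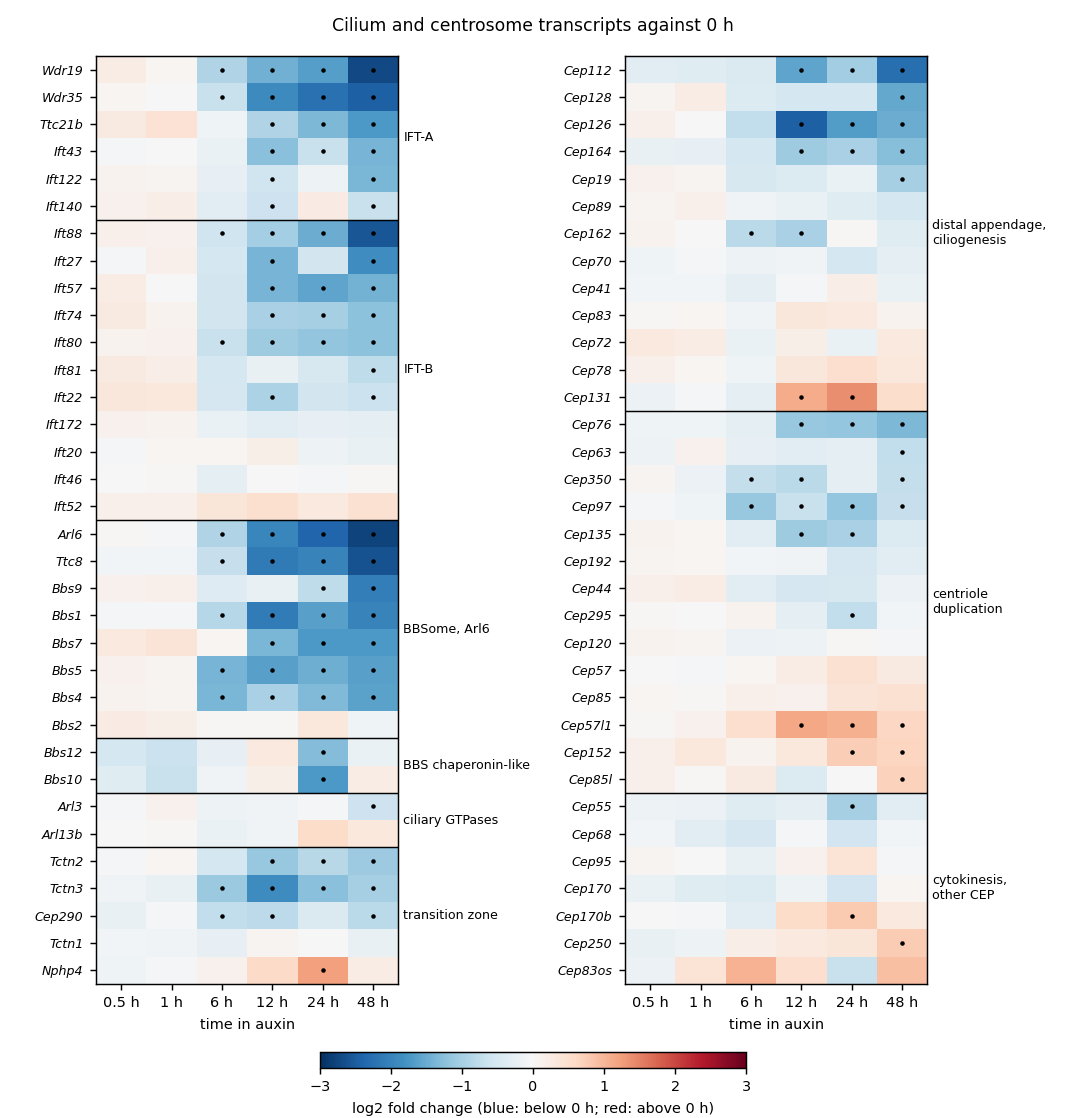
Log2 fold change against 0 h (colour) of 68 tested members, in rows grouped by role and ordered by the 48 h value, at 6 times in auxin (columns). A dot marks a called change: there are none at 0.5 and 1 h, 14 at 6 h, and 37 at 48 h, of which 33 are lower.

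The 3 named families did not look alike. Of the 14 IFT genes tested, 2, 9, 5 and 10 were lower at 6, 12, 24 and 48 h, and none was higher at any of these times. Of the 9 BBS genes 4, 5, 8 and 6 were lower in turn, and again none was higher. Of the 36 CEP genes, 4, 10, 8 and 10 were lower at 6, 12, 24 and 48 h, while 0, 2, 4 and 4 were higher. Of all genes tested, 5.7%, 13.2%, 20.3% and 17.6% were lower at these times. The shares of all genes called higher were 10.1%, 14.8%, 20.2% and 17.9%. The CEP share lower was 11.1% (6 h), 27.8% (12 h), 22.2% (24 h) and 27.8% (48 h). It was thus near that of all genes at 24 h and above it at 6, 12 and 48 h. The CEP share higher was 0%, 5.56%, 11.1% and 11.1% in turn, below that of all genes each time. At 48 h the median log2 fold change was -0.99 for IFT, -1.62 for BBS and -0.13 for CEP genes. Summed over the family, IFT transcripts went from 256 and 245 TPM at 0 h to 203 and 197 at 48 h, and BBS transcripts from 56.9 and 52.9 to 26.3 and 27.5. The CEP sum was 816 and 807 TPM at 0 h and 775 and 752 at 48 h. No test of one family against another was made.

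**Figure D2:**
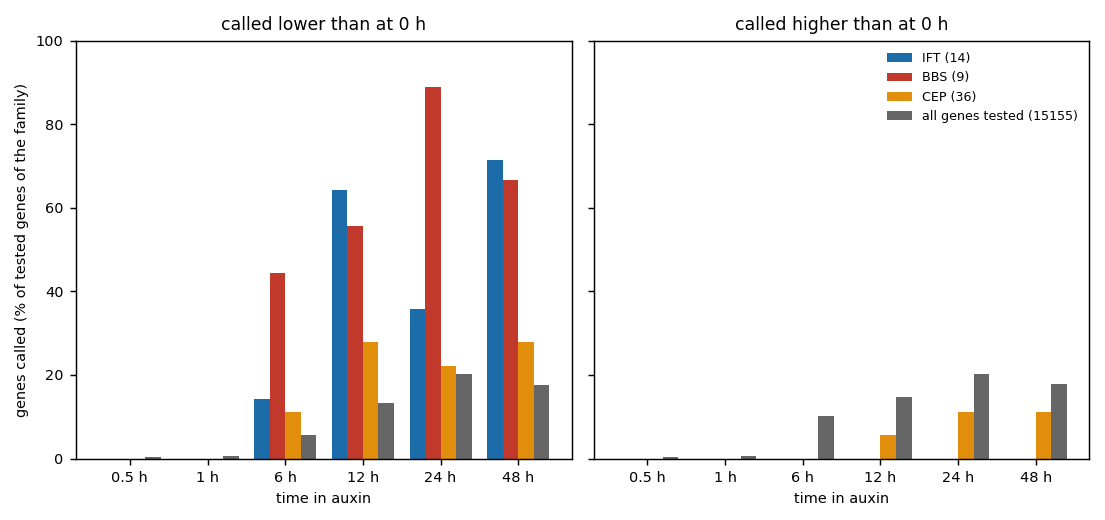
Share of the tested genes of each family (bars, % of the family) called lower (left) or higher (right) than at 0 h, by time in auxin, with all 15155 genes tested in grey. At 48 h 10 of 14 IFT, 6 of 9 BBS and 10 of 36 CEP genes were lower, against 17.6% of all genes tested.

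Transcripts of 6 of 6 IFT-A subunits were lower at 12 and at 48 h, with medians of -1.08 and -1.55. Of all genes tested, 13.2% and 17.6% were lower at these times. Wdr19 (IFT144, chr5:65199696-65260415 in GRCm38) measured 4.04 and 4.73 TPM (Mock), 4.42 and 4.43 (0 h), 6.28 and 3.92 (0.5 h), 4.27 and 4.66 (1 h). Wdr19 afterwards showed 2.33 and 2.35 (6 h), 1.32 and 1.84 (12 h), 1.53 and 1.33 (24 h) and 0.665 and 0.674 (48 h). All 8 libraries from 6 h on lay below all 8 earlier ones. Its log2 fold change at 48 h was -2.71 ± 0.22 (adjusted p = 1.73e-10), where ± gives the standard error, and all fold changes that follow are on this log2 scale. Wdr35 (IFT121, chr12:8973892-9028847) stood at 10.2 and 9.67 TPM (Mock), 12 and 11.4 (0 h), 12 and 11.7 (0.5 h), 10.6 and 12.2 (1 h). Wdr35 went on to 7.48 and 7.01 (6 h), 2.55 and 3.49 (12 h), 2.22 and 2.78 (24 h) and 2.31 and 1.92 (48 h), and the late libraries again did not overlap the early ones. It was lower by 6 h (-0.68, or -0.48 and uncalled against Mock) and reached -2.45 ± 0.14 (adjusted p = 1.64e-13) at 48 h.

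Ttc21b (IFT139), a peripheral subunit of IFT-A, ranged over 2.63 to 3.94 TPM in the 8 libraries from Mock to 1 h and measured 2.9 and 2.19 (6 h), 1.55 and 1.34 (12 h), 1.0 and 1.22 (24 h) and 0.780 and 0.899 (48 h). It was not called at 6 h and lay at -1.72 ± 0.20 (adjusted p = 7.57e-08) at 48 h. The remaining 3 subunits were lowest at 12 and 48 h, with 24 h in between. Ift140 gave 12.9 and 14.1 TPM (Mock), 12.8 and 12.1 (0 h), 13.1 and 13.4 (0.5 h), 14.1 and 13.4 (1 h). Ift140 moved to 9.42 and 10.2 (6 h), 7.45 and 8.33 (12 h), 14 and 16.4 (24 h) and 7.57 and 7.83 (48 h). The libraries at 12 and 48 h were lowest, and those at 24 h lay within or above the range of the early ones. The 24 h value against 0 h was 0.26 and not called, and the direct test of 48 h against 24 h gave -0.93 ± 0.09 (adjusted p = 4.77e-09). Ift122 went from a range of 3.69 to 4.51 TPM up to 1 h to 3.24 and 3.26 (6 h), 2.58 and 2.43 (12 h), 3.66 and 3.56 (24 h) and 1.33 and 1.66 (48 h), with -1.37 ± 0.15 (adjusted p = 1.55e-08) at 48 h and -1.22 from 24 to 48 h. Ift43 went from a range of 10.05 to 17.2 TPM to 9.1 and 10.3 (6 h), 5.33 and 3.61 (12 h), 7.13 and 7.16 (24 h) and 3.76 and 4.61 (48 h), with -1.39 ± 0.22 (adjusted p = 6.24e-06) at 48 h. The 12 h calls of Ift140 and Ift122 sat near the fold limit: without 0 h replicate 1 they were -0.57 and -0.51, Ift140 was -0.54 without 12 h replicate 1, Ift122 was -0.55 without 12 h replicate 2, and none of these values was called.

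IFT-B was uneven. Of its 11 genes tested 2, 6, 4 and 7 were lower at 6, 12, 24 and 48 h. The shares of all genes tested were 5.7%, 13.2%, 20.3% and 17.6%. Ift88, a core subunit without which mouse cells fail to grow normal cilia, measured 6.64 and 7.47 TPM (Mock), 7.57 and 6.85 (0 h), 8.08 and 7.58 (0.5 h), 6.83 and 8.62 (1 h). Ift88 later held 5.31 and 4.15 (6 h), 3.17 and 3.69 (12 h), 2.84 and 2.44 (24 h) and 1.34 and 1.06 (48 h). Its level at 48 h was the lowest of the series, at -2.57 ± 0.21 (adjusted p = 1.37e-10). The earlier call at 6 h (-0.60) was lost without 0 h replicate 1 (-0.53) or without 6 h replicate 2 (-0.43). Ift27, a small GTPase that helps the BBSome leave the cilium, ranged over 10.3 to 14.5 TPM up to 1 h and then gave 7.83 and 7.03 (6 h), 4.35 and 3.53 (12 h), 8.32 and 6.88 (24 h) and 2.8 and 3.08 (48 h), so that 24 h lay above 12 and 48 h. The fold change was -1.86 ± 0.18 (adjusted p = 3.57e-09) at 48 h and -1.32 ± 0.20 (adjusted p = 4.88e-06) from 24 to 48 h.

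Ift57, a peripheral subunit, fell from a range of 9.05 to 12.5 TPM to 7.33 and 7.11 (6 h), 4.53 and 3.26 (12 h), 3.73 and 3.49 (24 h) and 3.79 and 4.03 (48 h), with -1.43 ± 0.17 (adjusted p = 1.35e-07) at 48 h. Ift74, which with Ift81 binds tubulin, went from a range of 19.9 to 28.2 TPM to 14.6 and 15 (6 h), 9.66 and 11.7 (12 h), 11.5 and 10.6 (24 h) and 9.54 and 8.78 (48 h), with -1.24 ± 0.13 (adjusted p = 1.28e-08) at 48 h. Ift80 went from a range of 5.16 to 6.23 TPM to 3.82 and 3.35 (6 h), 2.52 and 2.71 (12 h), 2.38 and 2.73 (24 h) and 2.41 and 2.41 (48 h), with -1.23 ± 0.11 (adjusted p = 1.15e-09) at 48 h, and its 6 h value of -0.66 became -0.57, uncalled, without 6 h replicate 2. Ift22 (RABL5), a GTPase-like subunit, went from a range of 5.44 to 7.35 TPM to 3.37 and 4.25 (6 h), 3.25 and 2.15 (12 h), 3.41 and 4.15 (24 h) and 3.65 and 3.26 (48 h), and Ift81 was first called at 48 h. Both 48 h calls (-0.65 and -0.76) rested on 48 h replicate 2, without which they were -0.57 and -0.45. In contrast 4 subunits were called at none of the times. Ift20, the most abundant IFT transcript, which also works at the Golgi, measured 72.9 and 66.4 TPM (Mock), 64.1 and 56.9 (0 h), 56 and 59.8 (0.5 h), 60.1 and 61.9 (1 h). Ift20 afterwards showed 58.2 and 66.5 (6 h), 68.1 and 63.7 (12 h), 55.8 and 55.1 (24 h) and 55.1 and 47.9 (48 h), with -0.22 at 48 h. Ift172 (-0.27), Ift46 (0.03) and Ift52 (0.46) were the others.

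**Figure D3:**
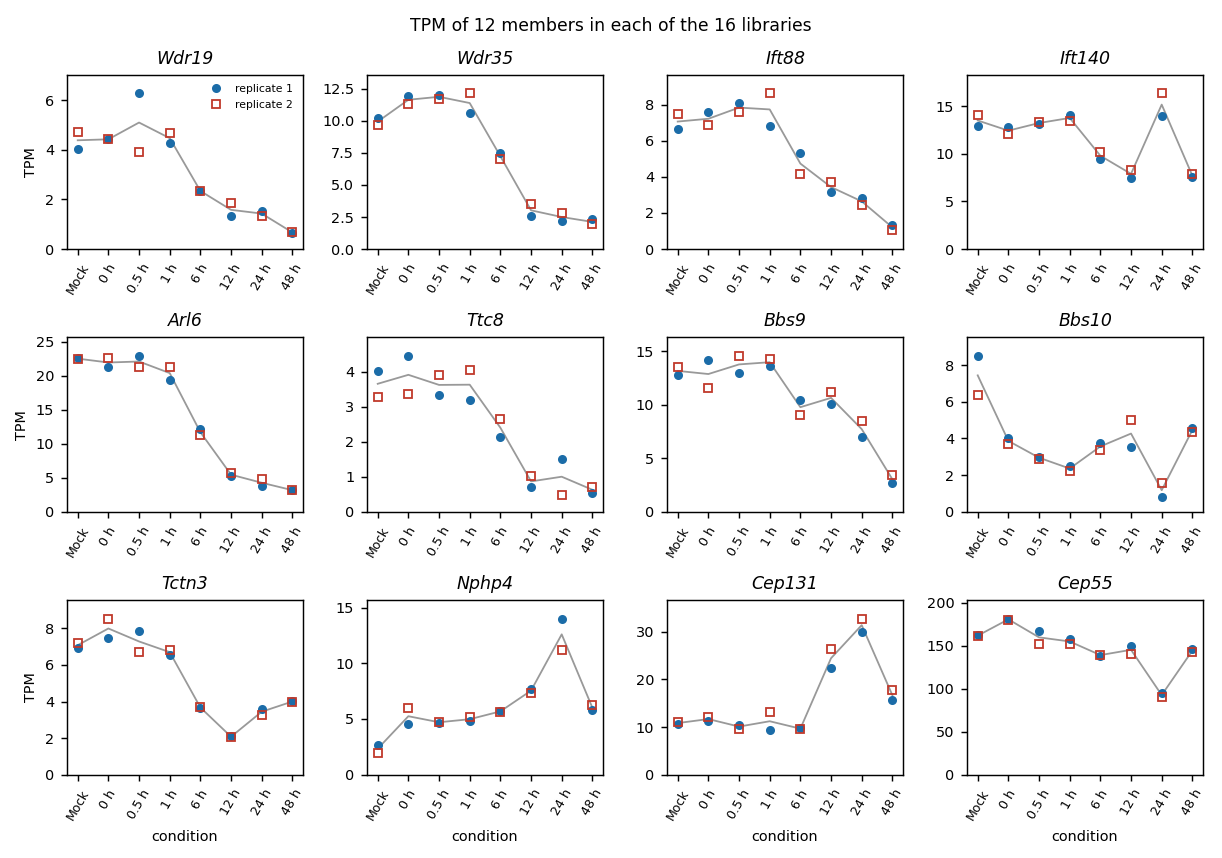
TPM (vertical axes, each from 0) of 12 members in both libraries of the 8 conditions, with a line through the condition means. Wdr19, Wdr35, Ift88, Ift140, Arl6, Ttc8, Bbs9 and Tctn3 end below their 0 h libraries at 48 h. Ift140 at 24 h lies above its 12 and 48 h libraries. Bbs10 and Cep55 are lowest at 24 h, and Nphp4 and Cep131 are highest there, with Cep131 raised at 12 h as well.

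Most transcripts of the BBSome and of the GTPase that recruits it were lower from 6 h on, starting at different times. Of the 7 BBSome subunits and Arl6 together, 5, 6, 7 and 7 were lower at 6, 12, 24 and 48 h, with a median of -1.86 at 48 h. Beside them 5.7%, 13.2%, 20.3% and 17.6% of all genes tested were lower. Arl6 (BBS3, chr16:59612949-59639391) brings the BBSome to membranes. It gave 22.6 and 22.4 TPM (Mock), 21.2 and 22.7 (0 h), 22.9 and 21.3 (0.5 h), 19.4 and 21.3 (1 h). Arl6 afterwards showed 12.2 and 11.2 (6 h), 5.24 and 5.68 (12 h), 3.78 and 4.76 (24 h) and 3.2 and 3.16 (48 h), with no overlap between libraries up to 1 h and those from 6 h on. The fold change was -0.90 ± 0.13 (adjusted p = 3.13e-06) at 6 h and -2.77 ± 0.16 (adjusted p = 4.68e-13) at 48 h, the lowest of all members. Ttc8 (BBS8, chr12:98920574-98983238) measured 4.03 and 3.28 TPM (Mock), 4.45 and 3.38 (0 h), 3.34 and 3.91 (0.5 h), 3.2 and 4.06 (1 h). Ttc8 later held 2.14 and 2.66 (6 h), 0.711 and 1.03 (12 h), 1.52 and 0.486 (24 h) and 0.547 and 0.714 (48 h). Its 48 h value was -2.60 ± 0.36 (adjusted p = 9.92e-07), and the 24 h duplicates were far apart, so that leaving out 24 h replicate 1 moved that comparison from -2.00 to -3.04. At 6 h its adjusted p was 0.045, and the call was lost without 0 h replicate 1 (-0.49), 6 h replicate 1 (-0.55) or 6 h replicate 2 (-0.86).

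Bbs1, the subunit that binds Arl6, ranged over 2.71 to 3.97 TPM up to 1 h and gave 2.11 and 1.49 (6 h), 0.669 and 0.810 (12 h), 1.2 and 0.958 (24 h) and 0.842 and 0.767 (48 h), with -2.0 ± 0.22 (adjusted p = 2.94e-08) at 48 h. Bbs5 went from a range of 7.82 to 10.2 TPM to 2.73 and 4.02 (6 h), 3.1 and 2.44 (12 h), 3.58 and 3.01 (24 h) and 2.22 and 3.51 (48 h), reaching its late level already at 6 h (-1.39 ± 0.22, adjusted p = 2.03e-05). Bbs4 did likewise, from a range of 5.04 to 7.18 TPM to 2.09 and 2.35 (6 h), 2.73 and 2.96 (12 h), 2.27 and 2.41 (24 h) and 1.8 and 1.97 (48 h) (-1.37 at 6 h, -1.61 at 48 h). Its exons overlap those of Adpgk on the opposite strand, which had a mean count of 1418 per library, and whether reads were counted by strand the sources used here do not give, so the level of Bbs4 is uncertain. Bbs7 was not called at 6 h (0.06) and went from a range of 2.03 to 3.25 TPM up to 1 h to 2.21 and 2.46 (6 h), 0.861 and 0.816 (12 h), 0.508 and 0.877 (24 h) and 0.863 and 0.501 (48 h). Bbs9, the most abundant BBS transcript, was not called before 24 h and gave 12.8 and 13.5 TPM (Mock), 14.2 and 11.5 (0 h), 13 and 14.5 (0.5 h), 13.6 and 14.3 (1 h). Bbs9 then gave 10.5 and 9.05 (6 h), 10.1 and 11.2 (12 h), 6.97 and 8.45 (24 h) and 2.65 and 3.42 (48 h). It was called at 24 h (-0.77) and 48 h (-2.07 ± 0.14, adjusted p = 7.84e-12) and fell between them (-1.30 ± 0.16, adjusted p = 2.54e-07). Bbs2 was the exception in the complex, at 10.4 and 9.14 TPM at 0 h and 9.52 and 8.23 at 48 h (-0.13, not called).

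Bbs10 and Bbs12 encode chaperonin-like proteins that help assemble the BBSome, and their transcripts moved at other times. Bbs10 measured 8.5 and 6.39 TPM (Mock), 4.01 and 3.72 (0 h), 3.0 and 2.9 (0.5 h), 2.51 and 2.21 (1 h). Bbs10 next measured 3.75 and 3.38 (6 h), 3.53 and 5.01 (12 h), 0.808 and 1.55 (24 h) and 4.58 and 4.35 (48 h). It was lower at 0 h than in Mock (-0.97 ± 0.21, adjusted p = 9.65e-04), lower again at 24 h (-1.73 ± 0.30, adjusted p = 2.25e-05), not called at 48 h (0.22), and higher at 48 h than at 24 h (1.95 ± 0.30, adjusted p = 7.16e-06). Bbs12 gave 6.86 and 7.29 TPM (Mock), 5.3 and 3.2 (0 h), 2.85 and 2.94 (0.5 h), 2.64 and 2.66 (1 h). Bbs12 then gave 3.43 and 3.66 (6 h), 4.41 and 5.74 (12 h), 1.8 and 1.72 (24 h) and 3.29 and 4.03 (48 h), with -1.30 at 24 h and 1.09 ± 0.31 (adjusted p = 0.00431) from 24 to 48 h. Its change at the doxycycline step (-0.76) was -0.45 without 0 h replicate 2, -0.73 without Mock replicate 2, both uncalled, and -1.17 without 0 h replicate 1. Exons of Bbs12 overlap Cetn4 on the opposite strand, with a mean of 9.4 counts.

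Among the 7 transition zone genes tested 3, 5, 4 and 5 were lower at 6, 12, 24 and 48 h. Among all genes tested the shares were 5.7%, 13.2%, 20.3% and 17.6%. Nphp4, a nephrocystin scaffold at this gate, went the other way: 2.68 and 1.97 TPM (Mock), 4.5 and 5.99 (0 h), 4.67 and 4.74 (0.5 h), 4.82 and 5.13 (1 h). Nphp4 moved to 5.72 and 5.64 (6 h), 7.72 and 7.37 (12 h), 14 and 11.2 (24 h) and 5.82 and 6.21 (48 h). It was higher at 0 h than in Mock (1.14 ± 0.18, adjusted p = 3.30e-05), higher at 24 h (1.23 ± 0.14, adjusted p = 3.76e-08), and lower at 48 h than at 24 h (-1.02 ± 0.14, adjusted p = 1.35e-06).

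The tectonics are transition zone proteins needed for ciliary membrane composition. Tctn3 was lowest at 12 h, with 6.57 to 8.53 TPM up to 1 h and then 3.64 and 3.7 (6 h), 2.09 and 2.06 (12 h), 3.6 and 3.29 (24 h) and 4.03 and 3.97 (48 h) (-1.89 at 12 h, -0.99 ± 0.17, adjusted p = 1.49e-05 at 48 h). Tctn2 went from a range of 4.79 to 5.58 TPM to 3.73 and 3.58 (6 h), 1.88 and 2.86 (12 h), 3.09 and 3.03 (24 h) and 2.86 and 2.15 (48 h), with -1.08 ± 0.16 (adjusted p = 1.73e-06) at 48 h. Tctn1 was not called at any time (-0.22 at 48 h), and its exons overlap those of Hvcn1 on the opposite strand, with a mean count of 561. Cep290, which bridges microtubules and membrane, went from a range of 3.84 to 5.31 TPM to 3.01 and 2.43 (6 h), 2.82 and 2.31 (12 h), 3.25 and 3.72 (24 h) and 2.49 and 2.72 (48 h), with -0.80 ± 0.13 (adjusted p = 1.08e-05) at 48 h, with a noncoding neighbour, 4930430F08Rik, overlapping its exons (mean count 123). Of the ciliary GTPases, Arl13b was not called (0.31 at 48 h), and Arl3, which releases lipid-anchored cargo into the cilium, was called at 48 h alone (38.9 and 45.4 TPM at 0 h, 27.2 and 26.8 at 48 h, -0.63). That call was lost without 0 h replicate 2 (-0.51) and against Mock (-0.39).

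The 14 CEP genes of distal appendages and ciliogenesis split. At 48 h 5 were lower, 0 higher and the median was -0.33, beside 17.6% of all genes tested lower and 17.9% higher. Cep164, the distal appendage protein that starts cilium growth by recruiting a kinase, went from a range of 13.1 to 18.7 TPM up to 1 h to 12.2 and 13.2 (6 h), 8.65 and 8.29 (12 h), 9.15 and 9.98 (24 h) and 7.71 and 7.31 (48 h), with -1.29 ± 0.07 (adjusted p = 2.48e-13) at 48 h. Against Mock its 24 h value of -0.98 was -0.58 and uncalled. Cep83 and Cep89, of the same appendage, were not called (0.12 and -0.53). Cep112, a coiled-coil protein of the centrosome, gave 1.61 and 1.54 TPM (Mock), 2.02 and 1.76 (0 h), 1.48 and 1.51 (0.5 h), 1.2 and 1.62 (1 h). Cep112 moved to 1.31 and 1.48 (6 h), 0.594 and 0.629 (12 h), 1.02 and 0.850 (24 h) and 0.377 and 0.397 (48 h), with 48 h lowest at -2.26 ± 0.30 (adjusted p = 6.06e-07). Cep126 was lowest at 12 h (-2.44) after 1.29 to 2.4 TPM up to 1 h, and then measured 0.829 and 1.11 (6 h), 0.170 and 0.405 (12 h), 0.524 and 0.502 (24 h) and 0.719 and 0.427 (48 h). Cep112 and Cep126 were scarce, with mean counts of 30.6 and 28.1. Cep128, of the subdistal appendages, was called at 48 h alone (4.97 and 4.26 TPM at 0 h, 1.61 and 1.53 at 48 h, -1.54 ± 0.13, adjusted p = 2.52e-10), as was Cep19, which links the older centriole to IFT entry (22.5 and 23.8 TPM at 0 h, 11.1 and 12.1 at 48 h, -0.99 ± 0.15, adjusted p = 2.76e-06).

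Cep162, which holds the transition zone to the axoneme, was lower at 6 h (-0.80) and 12 h (-0.97) and not later: 5.32 to 6.36 TPM up to 1 h, then 3.06 and 3.27 (6 h), 2.76 and 2.72 (12 h), 5.5 and 6.2 (24 h) and 4.61 and 3.93 (48 h). Cep131, a protein of the satellites around the centrosome, rose: 10.5 and 11.1 TPM (Mock), 11.3 and 12.1 (0 h), 10.5 and 9.65 (0.5 h), 9.34 and 13.1 (1 h). Cep131 went on to 9.71 and 9.61 (6 h), 22.5 and 26.4 (12 h), 30.1 and 32.7 (24 h) and 15.6 and 17.7 (48 h). The 12 and 24 h libraries lay above all others, with 1.11 ± 0.12 (adjusted p = 1.65e-08) and 1.40 ± 0.11 (adjusted p = 1.03e-10), and 48 h was lower than 24 h (-0.87 ± 0.11, adjusted p = 3.60e-07). Cep41, Cep70, Cep72 and Cep78 were not called at any time, with 48 h values from -0.29 to 0.32.

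The 14 genes of centriole duplication and elongation were called in both directions: 3 higher and 4 lower at 48 h. These are 21.4% and 28.6% of the group, beside 17.9% and 17.6% of all genes tested. Cep76, which restrains duplication, went from a range of 20.4 to 32.6 TPM up to 1 h, where Mock was lowest, to 25.3 and 27.4 (6 h), 12.9 and 15.6 (12 h), 13.9 and 15.9 (24 h) and 14.1 and 11.2 (48 h), with -1.35 ± 0.11 (adjusted p = 7.48e-11) at 48 h. Against Mock its 12 h value of -1.13 was -0.58 and uncalled. Cep97, part of the cap on the centriole end, was lowest at 6 and 24 h, with 4.91 to 6.0 TPM before and 2.6 and 2.57 (6 h), 3.52 and 3.42 (12 h), 2.39 and 2.84 (24 h) and 3.41 and 3.53 (48 h) after (-1.13 at 6 h, -0.70 ± 0.12, adjusted p = 1.98e-05 at 48 h). Cep350, a large centriolar protein, went from a range of 5.91 to 7.81 TPM to 4.2 and 4.29 (6 h), 3.71 and 3.95 (12 h), 5.04 and 6.67 (24 h) and 4.15 and 4.25 (48 h), with -0.72 ± 0.09 (adjusted p = 2.60e-07) at 48 h, with 24 h not called. Cep135, of the cartwheel from which a centriole grows, fell and returned: 15.1 to 17.7 TPM up to 1 h, then 13.5 and 12.3 (6 h), 7.24 and 7.67 (12 h), 8.19 and 8.73 (24 h) and 13 and 11.3 (48 h) (-1.08 at 12 h, -0.41 and not called at 48 h). Cep63 was lower at 48 h alone (-0.74), with exons that overlap Anapc13 (mean count 379), and Cep295 at 24 h alone (-0.75), with exons that overlap the abundant Taf1d (mean count 2802).

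Cep57l1, a paralog of the pericentriolar protein Cep57, rose: 10.7 and 12.6 TPM (Mock), 11.5 and 11.8 (0 h), 12.1 and 11.5 (0.5 h), 12 and 13 (1 h). Cep57l1 afterwards showed 16.6 and 16.6 (6 h), 26.5 and 23.8 (12 h), 24 and 26.2 (24 h) and 17.8 and 17.7 (48 h). Its fold change was 1.15 ± 0.08 (adjusted p = 3.59e-11) at 12 h, 1.07 at 24 h and 0.62 ± 0.09 (adjusted p = 1.50e-06) at 48 h. Cep152, which with Cep63 and Cep192 places the duplication kinase, gave 10.7 and 10.5 TPM (Mock), 10.5 and 10.7 (0 h), 12 and 11.1 (0.5 h), 13.2 and 12.6 (1 h). Cep152 then gave 10.6 and 12.2 (6 h), 12.5 and 13.2 (12 h), 18.9 and 17.3 (24 h) and 16.3 and 16.3 (48 h), higher at 24 h (0.74 ± 0.09, adjusted p = 1.57e-07) and 48 h (0.63). Cep85l was higher at 48 h alone: 3.4 and 2.68 TPM (Mock), 2.22 and 2.7 (0 h), 2.94 and 2.39 (0.5 h), 2.24 and 2.66 (1 h). Cep85l afterwards showed 3.13 and 2.81 (6 h), 1.74 and 1.82 (12 h), 2.43 and 2.53 (24 h) and 3.91 and 3.93 (48 h). Its 0.69 ± 0.16 (adjusted p = 6.88e-04) became 0.55 without 0 h replicate 1 and 0.35 against Mock, both uncalled. On the dm6 scale the 48 h calls of Cep57l1, Cep152, Cep85l and Cep250 were lost, as were those of Cep131 at 12 h and of Cep152 and Cep170b at 24 h. Cep57, Cep85, Cep44, Cep120 and Cep192 were not called at any time, with 48 h values from -0.34 to 0.45.

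Of the 7 other CEP genes 1 was higher and 0 lower at 48 h, beside 17.9% and 17.6% of all genes tested. Cep55, the most abundant member, acts at the midbody in the last step of cell division. It measured 162 and 161 TPM (Mock), 181 and 179.9 (0 h), 167 and 152 (0.5 h), 158 and 152 (1 h). Cep55 moved to 138 and 139 (6 h), 149.7 and 140.4 (12 h), 95.1 and 89.8 (24 h) and 146 and 142 (48 h), lower at 24 h (-1.0 ± 0.05, adjusted p = 5.72e-14) and higher again at 48 h than at 24 h (0.68 ± 0.06, adjusted p = 3.40e-10). Cep250, the root of the linker between centrioles, gave 14.9 and 13.6 TPM (Mock), 19 and 18.4 (0 h), 16.6 and 14.7 (0.5 h), 16 and 17 (1 h). Cep250 afterwards showed 21.2 and 21.6 (6 h), 22.5 and 22 (12 h), 22.4 and 26.4 (24 h) and 31 and 32 (48 h), with 48 h highest (0.76 ± 0.06, adjusted p = 2.14e-10). Cep170b was higher at 24 h (0.79 ± 0.09, adjusted p = 2.95e-08), at 10.2 and 8.21 TPM (Mock), 11 and 12 (0 h), 11.4 and 11.4 (0.5 h), 10.3 and 11.7 (1 h). Cep170b moved to 9.57 and 8.38 (6 h), 16.3 and 16.4 (12 h), 19.6 and 21 (24 h) and 13.4 and 14.6 (48 h). Cep68, another linker protein, differed at the doxycycline step: 30.8 and 30.9 TPM (Mock), 20.9 and 20.8 (0 h), 19.4 and 19.1 (0.5 h), 14.8 and 17.9 (1 h). Cep68 then gave 15.5 and 13.6 (6 h), 18.3 and 20.6 (12 h), 13.3 and 15.4 (24 h) and 20.1 and 18.9 (48 h), with -0.60 ± 0.08 (adjusted p = 2.47e-06) and no call after it. That value lies at the fold limit and was not called with total counts (-0.58), no filter (-0.56), edgeR on the pair (-0.58), limma (-0.54) or dm6 scaling (-0.20). Cep170 (0.06) and Cep95 (-0.05) were not called against 0 h. Cep83os, a noncoding neighbour of Cep83 with a mean count of 10.9, was not called either.

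At the doxycycline step itself 4 of the 71 members were called, 1 higher (Nphp4) and 3 lower (Bbs10, Bbs12 and Cep68), beside 5.19% of all genes called higher and 4.24% lower. On the dm6 scale, where the median of all genes moved to 0.38, the split was 13 higher and 0 lower, beside 22.8% of all genes higher and 1.19% lower on that scale. All other values from Mock to 0 h stayed under a fold of 1.5.

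The direct test of 48 h against 24 h asked whether the late effects differed. It called 13 members lower and 7 higher, beside 12.3% of all genes lower and 12.2% higher. Lower were 5 IFT genes (Ift27, Ift122, Ift88, Ift140 and Ift43), Wdr19, Bbs9, Cep112, Cep128, Cep19, Cep131, Nphp4 and Arl3. Higher were Bbs10, Bbs12, Cep55, Cep85l, Cep295, Cep170 and Cep83os. Of these, Arl3 (-0.59) was -0.56 and uncalled without 24 h replicate 2 and -0.58 without 48 h replicate 2. Ift43 (-0.72) was -0.59 without 48 h replicate 1, Cep295 (0.66) 0.53 without 24 h replicate 1, and Cep170 (0.63) 0.48 without 24 h replicate 1 and 0.54 without 48 h replicate 1, all uncalled. Cep83os, listed at 0 in 24 h replicate 1, had an adjusted p of 0.0442. Its call was lost in 13 of the 16 fits that left out a library, and its value of 1.57 was 0.60 without 24 h replicate 1. Without 24 h replicate 2 it was 6.97, which is set by the 0 and is no bound.

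**Figure D4:**
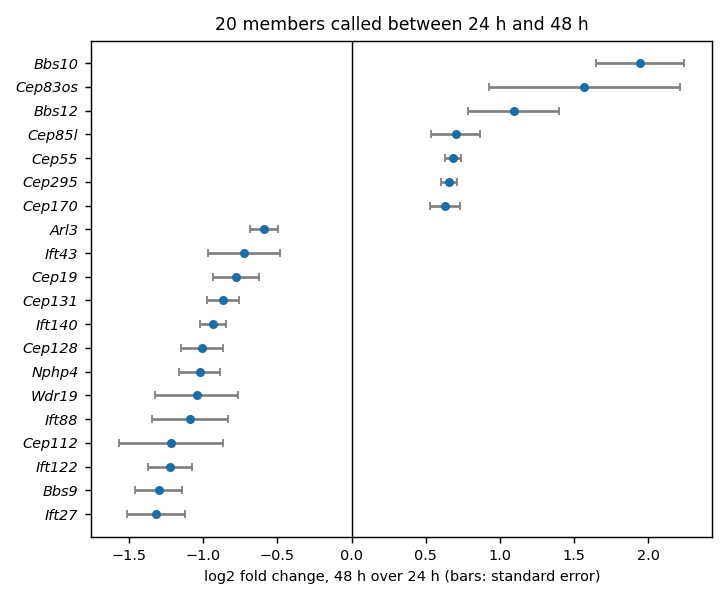
Log2 fold change of 48 h over 24 h (points, with standard errors as bars) for the 20 members called in that comparison, 2 libraries a condition. Bbs10 is highest at 1.95 and Ift27 lowest at -1.32, and 13 of the 20 lie below 0.

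The members lower at 48 h were on the scarce side at 0 h. Their median level there was 6.96 TPM (35 genes, 1.62 to 42.2), and that of the 32 members not called was 16.9 TPM (0.32 to 180.5). Of the 35, 22 were under 10 TPM at 0 h, against 11 of the 32. The 35 lay on 16 chromosomes, and the 32 not called also on 16. This is a description of levels per transcript length, without a test.

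The promoters were read for sequence features that the gene rule did not use. Windows of 300 bases, from 250 before to 50 after each start site, came from RefSeq (build GRCm38.p6) and matched 61 of the 75 members with 71 windows. Regulatory factor X (RFX) proteins are transcription factors long tied to ciliary genes, and the letters GTTGCC are a half-site of their X-box motif. On either strand that half-site was in 46.9% of the 32 windows of members lower at 48 h, 23.5% of the 34 windows of members not called, and 0 of the 5 windows of members higher, beside 12.8% of the 13982 windows of genes tested and 12.5% of all 32851 windows. These shares count windows and not genes: the 32 windows came from 28 genes and the 34 from 29. Overlapping windows of 1 gene were each counted, as for Cep57, not called, whose windows each hold the half-site. By family the half-site was in 5 of 11 IFT, 3 of 9 BBS and 9 of 38 CEP windows. The longer core GTTGCCATG, which contains the half-site, was in 2 of the 32 windows and 0.701% of windows of genes tested. CCAAT was in 56.2% and 50% of the windows of members lower and not called (38.1% of those of genes tested), the E2F letters TTTCGCGC or TTTGGCGC in 9.38% and 0% (1.47%), and the cell cycle CHR letters TTTGAA in 9.38% and 20.6% (11.8%). A match describes letters and is not a bound site, and the part of base composition in these shares was not tested.

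The windows shown are those of the 4 members with the lowest 48 h fold change among those that have 1 window and the half-site in it. They are followed by the 2 windows with the longer core and, for contrast, by Cep250, higher at 48 h, which has neither. Each is written 5′ to 3′ along the strand of its gene. Capitals mark the half-site or longer core on either strand (GGCAAC is GTTGCC read on the other strand). Ift88 is chr14:57423821-57424120, plus strand, Wdr35 is chr12:8973751-8974050, plus strand, Bbs1 is chr19:4906578-4906877, minus strand, Ift27 is chr15:78174032-78174331, minus strand, Cep112 is chr11:108425016-108425315, plus strand, Tctn2 is chr5:124598499-124598798, plus strand, and Cep250 is chr2:155956308-155956607, plus strand.
Ift88: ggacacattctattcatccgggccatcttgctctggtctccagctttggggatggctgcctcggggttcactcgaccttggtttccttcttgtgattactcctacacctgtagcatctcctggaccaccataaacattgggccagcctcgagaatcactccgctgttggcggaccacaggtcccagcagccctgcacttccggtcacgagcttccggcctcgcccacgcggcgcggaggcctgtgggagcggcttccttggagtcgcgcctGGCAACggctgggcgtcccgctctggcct
Wdr35: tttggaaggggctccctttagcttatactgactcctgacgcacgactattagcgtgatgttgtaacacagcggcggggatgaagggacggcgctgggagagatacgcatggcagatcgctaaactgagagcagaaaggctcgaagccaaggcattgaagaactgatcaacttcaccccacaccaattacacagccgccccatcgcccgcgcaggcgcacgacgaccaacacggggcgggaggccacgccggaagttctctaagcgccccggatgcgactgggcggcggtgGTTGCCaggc
Bbs1: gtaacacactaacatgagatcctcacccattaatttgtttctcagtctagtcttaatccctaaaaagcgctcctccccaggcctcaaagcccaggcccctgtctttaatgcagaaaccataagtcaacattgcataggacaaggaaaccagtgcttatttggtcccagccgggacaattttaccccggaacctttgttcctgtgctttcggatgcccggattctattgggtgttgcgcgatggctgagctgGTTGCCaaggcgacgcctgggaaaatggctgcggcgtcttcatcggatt
Ift27: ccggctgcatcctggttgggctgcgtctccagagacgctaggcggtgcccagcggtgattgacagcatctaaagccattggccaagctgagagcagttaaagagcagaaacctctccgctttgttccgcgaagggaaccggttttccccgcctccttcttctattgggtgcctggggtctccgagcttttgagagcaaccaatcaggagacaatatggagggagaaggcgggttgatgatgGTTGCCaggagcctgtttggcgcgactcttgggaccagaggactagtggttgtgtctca
Cep112: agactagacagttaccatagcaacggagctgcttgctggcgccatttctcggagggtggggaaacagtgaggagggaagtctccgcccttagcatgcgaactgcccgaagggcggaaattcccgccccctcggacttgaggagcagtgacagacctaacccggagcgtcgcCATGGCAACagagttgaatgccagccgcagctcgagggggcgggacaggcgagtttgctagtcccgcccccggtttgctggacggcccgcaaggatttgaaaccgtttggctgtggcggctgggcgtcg
Tctn2: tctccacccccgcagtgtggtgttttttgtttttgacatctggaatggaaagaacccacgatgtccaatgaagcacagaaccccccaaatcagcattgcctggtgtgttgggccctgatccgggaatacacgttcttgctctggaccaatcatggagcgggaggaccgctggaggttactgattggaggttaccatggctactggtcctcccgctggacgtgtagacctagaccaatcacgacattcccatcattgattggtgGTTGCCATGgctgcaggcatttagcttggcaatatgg
Cep250: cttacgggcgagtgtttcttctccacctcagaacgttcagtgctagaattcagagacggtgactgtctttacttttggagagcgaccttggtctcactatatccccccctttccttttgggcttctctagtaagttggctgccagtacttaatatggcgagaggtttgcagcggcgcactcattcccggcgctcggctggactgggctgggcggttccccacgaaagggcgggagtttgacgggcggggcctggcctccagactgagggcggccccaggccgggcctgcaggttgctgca
Counted from 1 at the start site, the half-site begins at base 22 in Ift88, 41 in Wdr35, 2 in Bbs1 and 14 in Tctn2. In Ift27 and Cep112 it lies before the start, at -9 and -76.

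Genes of the same functions outside the name rule were counted from lists set up with results of these data known. Of 17 other IFT subunits and motors tested, 9 were lower and 1 higher at 48 h, with a median of -1.04: Wdr60, an intermediate chain of the IFT dynein, at -2.80, Ttc26 (IFT56) at -2.43 and Kifap3, the accessory subunit of the IFT kinesin, at -2.31. Of 10 other BBS genes and BBSome partners, 7 were lower and 1 higher (Wdpcp -1.66, Sdccag8 -1.39 and the BBSome subunit Bbip1 -1.37). Of 19 other transition zone genes, 8 were lower and 1 higher, among them Cc2d2a at -4.01, Rpgrip1l at -2.54 and Rpgr at -2.45. The 43 other centriole genes split as 11 lower and 7 higher with a median of -0.03, led by Haus7 (-1.56), Poc1b (-1.5) and Sclt1 (-1.47). Each count stands beside 17.6% of all genes lower and 17.9% higher.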

How the data were processed

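Poly(A) RNA-Seq of 16 libraries (8 conditions, 2 each) was used. By the submitters' notes and methods, trimming was with cutadapt 1.18, alignment to mm10 with STAR 2.7.3a, duplicates were removed, and genes were quantified with RSEM 1.3.1. The authors deposited expected counts, estimated by RSEM by dividing reads among similar genes, and TPM, which the authors scaled by transcript length and depth. Another deposited table holds their own comparisons from DESeq2 1.24.0 (fold changes and p-values) and was not used.

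Expected counts were rounded to whole numbers. Genes that passed filterByExpr over the 8 conditions (15155 of 55335) were fitted with edgeR 4.0.16 in R 4.3.3, with TMM scaling, 1 coefficient a condition and all 16 libraries, and glmQLFTest. P-values were adjusted by Benjamini-Hochberg over all genes tested, and genes were called at 0.05 with a fold over 1.5. Standard errors are the log2 fold change divided by the root of F. The code was also run on simulated counts drawn from the model that edgeR assumes. That run checks the code and says nothing of the spread between these libraries. The biological coefficient of variation was 3.43% with 8 residual degrees of freedom, so the precision is that between libraries. Alternatives were RLE, total count and dm6 scaling, other filters on low counts (none, or 1 CPM in 2 libraries), DESeq2 1.42.0, edgeR on the pair alone, limma 3.58.1 on log2(TPM + 1), other fold limits, a replicate block, Mock as the baseline, and leaving out each library.

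The members, lists and motifs were chosen with earlier results of these data known. Some members enter the counts, ranges and medians and are not reported here by name. Values in every condition are given for members called by 12 h or at the doxycycline step, for called members among the 6 highest or 6 lowest at 24 or 48 h, and for the most abundant IFT, BBS and CEP gene. Others are given by range and count. Up to 3 genes of each other list are named, those called at 48 h with the largest change. The printed promoter windows were picked by the rule stated beside them. Gene positions are from the GENCODE annotation of GRCm38.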

Additional observations from a re-analysis of the deposited data

Results flagged for a closer look

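The 20 members whose effects at 24 h and 48 h differed by the direct test are given here, on the log2 scale of 48 h over 24 h. Of those that differed downward, Ift27 was at -1.32, Bbs9 at -1.30, Ift122 at -1.22, Cep112 at -1.22, Ift88 at -1.09, Wdr19 at -1.05, Nphp4 at -1.02 and Cep128 at -1.01. Smaller ones were Ift140 at -0.93, Cep131 at -0.87, Cep19 at -0.78, Ift43 at -0.72 and Arl3 at -0.59. Upward, Bbs10 was at 1.95, Cep83os at 1.57, Bbs12 at 1.09, Cep85l at 0.70, Cep55 at 0.68, Cep295 at 0.66 and Cep170 at 0.63. In Bbs10, Cep170, Cep85l and Cep83os the values against 0 h were below 0 at 24 h and above 0 at 48 h, and in Ift140 the reverse.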

How the results depend on the processing

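Of the 146 calls of single members over the 8 comparisons, none changed sign under any alternative, and 110 held under every alternative other than the fold limit of 2. Leaving out 1 library at a time moved the count of members called to 3 to 5 at the doxycycline step, 0 to 0 at 0.5 h, 0 to 1 at 1 h, 14 to 16 (6 h), 33 to 38 (12 h), 34 to 42 (24 h), 37 to 40 (48 h) and 18 to 21 for 48 h against 24 h. With a fold limit of 2 the counts were 1 at the doxycycline step, 4 (6 h), 22 (12 h), 25 (48 h) and 11 for 48 h against 24 h. Of all genes tested, 2.36%, 5.57%, 8.62%, 10.3% and 7% were then higher, in that order. The shares lower were 1.56%, 1.47%, 6.24%, 10.3% and 5.93%. With no fold limit the member counts were 18 at the doxycycline step, 2 (0.5 h), 5 (1 h), 40 (6 h), 52 (12 h), 59 (24 h) and 43 for 48 h against 24 h. In the same order 16.7%, 2.73%, 3.78%, 20.3%, 28.5%, 33.3% and 25.7% of all genes were higher. Those lower made up 17.9%, 3.93%, 6.47%, 22.5%, 27.9%, 34% and 26.6%. Scaling by the dm6 reads gave 13 at the doxycycline step, 1 at 1 h and 52 at 12 h, where 22.8%, 3.06% and 5.8% of all genes were higher and 1.19%, 0.284% and 43.8% lower, and shifted the median of all genes by up to -0.56. It ended 11 calls, among them all 4 higher ones at 48 h (Cep152 0.44, Cep57l1 0.43, Cep85l 0.50 and Cep250 0.57). Against Mock instead of 0 h the counts were 5 (0.5 h), 4 (1 h) and 25 (6 h), and 8 calls were lost. There 7%, 7.38% and 14.7% of all genes were higher and 4.86%, 5.59% and 11.2% lower. The limma test on log2(TPM + 1) ended 17 calls and DESeq2 6: Ift22 at 48 h (adjusted p = 0.0595), Ttc8 at 6 h (0.199), Bbs12 at the doxycycline step (0.126), Ift43 at 24 h (0.0755) and, for 48 h against 24 h, Ift43 (0.0793) and Cep83os (0.14), and no filter ended 3. The cause of these losses was not tested. Replicate numbers gave no pairing: deviations of same-numbered libraries correlated at -0.08 to 0.06 over 28 pairs, and the replicate block lost 1 call, Ttc8 at 6 h, so that 14 members were called there.

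Scarce members set the limit of precision: Cep126, Cep112, Ttc8, Bbs12 and Bbs7 averaged 28.1 to 40.3 counts a library, and calls of Ttc8 and Bbs12 turned on single libraries. Genes that overlap others on the opposite strand, and reads that RSEM divides among near-identical copies, leave single levels uncertain.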

Other observations

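The lists also took in signalling and regulators around the cilium, and these did not move in 1 direction. Of 17 Hedgehog pathway genes, a pathway read through the cilium in vertebrates, 6 were higher and 4 lower at 48 h, beside 17.9% of all genes tested higher and 17.6% lower: Hhip, a ligand-binding antagonist, at 3.81, the co-receptor Boc at 2.52 and the co-receptor Gas1 at 1.96 on the log2 scale. Of 9 RFX factors and multiciliation regulators, 7 were higher and 1 lower at 24 h (20.2% and 20.3% of all genes) and 3 were higher and 3 lower at 48 h, where Rfx4 was at 2.22, Ccno, a driver of centriole amplification, at 2.19 and Rfx1 at -0.90. Of 13 assembly factors of axonemal dynein arms, 4 were lower and 0 higher at 48 h (Cfap300 -1.95, Dnaaf3 -1.85 and Cfap298 -1.12). The lists were set up with results of these data known.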
